A study of Mus musculus with 47 samples.

Results

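The integrated stress response genes described here are Atf4, Atf5, Ddit3, Ddit4, Trib3, Chac1, Asns, Sesn2, Gdf15 and Fgf21. They are 10 of the 56748 genes of a mouse RNA-seq count table, were given as a list of symbols with no threshold on a measured value, and all 10 were found in the table. Ddit3 is the symbol of 2 gene IDs there, and the ID with the longer span was used. RNA was measured in B78-D14 cells, an amelanotic Cdkn2a-/- derivative of the B16 melanoma line from C57BL/6 mice, and in fragments of tumors that such cells formed under the skin of C57BL/6 males. Some of the cells carried a G>A change that truncates Mt-Nd5, the mitochondrial gene for a subunit of respiratory complex I. This change had been installed with a mitochondrial cytosine base editor at either m.11,944 or m.12,436, in a share of mtDNA copies (the heteroplasmy) of 40% or 60%. Cultures numbered 4 for m.11,944 60% cells and 4 for control cells, and tumors numbered 7 for m.12,436 60%, 7 for m.12,436 40% and 4 for control cells labelled wild type. Tumors are named by the heteroplasmy of the injected cells. No group received a treatment, and the mice were about 8 weeks old by the study's methods and 10 to 16 weeks old by its reporting summary. The mutant cells are sorted, transfected populations kept in a medium with extra serum and uridine, so each mutant group stands for 1 derived population. The labels do not say that cultures came from separate thaws or passages, so p values measure the spread between these samples, which may be partly technical.

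The integrated stress response is the common output of a small family of kinases that phosphorylate translation initiation factor eIF2. Phosphorylated eIF2 slows protein synthesis in general while the mRNA of the transcription factor ATF4 is translated more, and ATF4 then raises genes for amino acid import and synthesis, tRNA charging, redox defence and, in prolonged stress, cell death. Impaired respiration is one of its known triggers in mammalian cells, relayed from the mitochondrion by OMA1 and DELE1 to the kinase HRI, and GDF15 and FGF21 are hormones that cells with damaged mitochondria are known to secrete. ATF4 is controlled largely in translation, which RNA counts do not measure, so its targets carry much of what can be read here.

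ATF4 and the CHOP protein made from Ddit3 bind composite C/EBP-ATF sites, and the letters TGATGNAA (reverse complement TTNCATCA) were searched on both strands of the RefSeq promoter windows of GRCm38.p6, each with 250 bases before and 50 bases after a gene start. All 10 genes had a window, and 4 of them (40.0%) held a match, against 1219 of 27025 genes with a window (4.51%). The list is one of ATF4-pathway genes, so a share above that of all genes is not independent of how it was chosen. The same holds for the lists of ATF4 partners and targets below. The stretches around the 4 matches are shown because they are a sequence feature that these 4 genes share, with the match in capitals.
Chac1, chr2:119351009-119351096 of GRCm38.p6, plus strand: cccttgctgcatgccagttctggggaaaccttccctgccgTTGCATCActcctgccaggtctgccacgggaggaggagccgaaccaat
Asns, chr6:7693210-7693272 of GRCm38.p6, minus strand: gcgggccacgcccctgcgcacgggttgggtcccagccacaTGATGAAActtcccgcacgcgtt
Fgf21, chr7:45615582-45615669 of GRCm38.p6, minus strand: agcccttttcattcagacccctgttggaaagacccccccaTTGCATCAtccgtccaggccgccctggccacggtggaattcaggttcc
Trib3, chr2:152344028-152344057 of GRCm38.p6, minus strand: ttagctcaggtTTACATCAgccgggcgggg
Relative to the gene start the match lies at −193 to −186 in Chac1, at −23 to −16 in Asns, at −139 to −132 in Fgf21 and at 15 to 22 in Trib3. The other 6 genes had no match in these windows, which says nothing of sites elsewhere. Among 46 further genes in 5 lists (bZIP partners of ATF4, amino acid transporters, amino acid synthesis, tRNA synthetases and other ATF4 targets), 34 had a window and 14 of those (41.2%) held a match, 5 of them in the 8 tRNA synthetases with a window. No match was found in the windows of 10 ER chaperones, 7 mitochondrial chaperones and proteases, 7 p53 targets, 9 hypoxia targets, 4 glucocorticoid targets and 5 eIF2 kinases and relay genes. Of 8 genes for eIF2, eIF2B and the eIF2 phosphatase with a window, 1 held a match (12.5%), Eif2s3x.

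Counts on genes lay between 16475735 and 36173502 per sample. Levels are given as TMM-scaled CPM, a gene's share of the library's counts on a common scale after edgeR's trimmed-mean scaling. Cultures with the same number resembled each other across groups over all genes, and cultures 1 and 2 were the closest pair within each group. Among tumors, m.12,436 40% tumor 2 stood apart in several of the 10 genes. Summed melanoma lineage markers were low in the cultures, at 9.49 to 23.6 CPM with 1 of 8 markers at 0 in every control culture and 3 of 8 in every mutant culture, and reached 60.6 to 137 CPM in tumors. Leukocyte markers summed to 1.94 to 2.66 CPM in cultures and to 479 to 821 CPM in tumors. In bulk tumors, fewer cells of a type and less RNA per cell cannot be told apart.

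Per length of the canonical transcript (RPKM, mean of the 4 control cultures), Atf4 had the highest level at 373, followed by Trib3 at 132, Atf5 at 94.97, Asns at 90.6, Ddit4 at 74.8, Ddit3 at 65.3, Sesn2 at 42.8 and Chac1 at 17.1. The secreted factors Fgf21 and Gdf15 were lowest, at 1.63 and 1.19. The SD of Trib3 over control cultures (131) was as large as its mean and that of Ddit3 (68.8) was larger, so neighbours between Trib3 and Sesn2 in this order did not differ beyond their spread. Control tumors gave another order, with Atf4 at 142 ± 8.66 (SD, n = 4), Ddit4 at 107 ± 23.6 and Atf5 at 59.9 ± 9.14. Below them stood Ddit3 at 17.2 ± 4.33, Sesn2 at 13.9 ± 1.13, Asns at 12.6 ± 1.58 and Trib3 at 3.32 ± 0.787. Ddit3, Sesn2 and Asns did not differ beyond their spread there. Counts cover all exons of a gene, while the length is that of the canonical transcript. That is 979 of 5579 exon bases for Ddit3 and 4901 of 11709 for Asns, so the places of these 2 genes in both orders are uncertain.

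The first comparison, m.11,944 60% against control cells, asks whether a truncating complex I mutation at this heteroplasmy moved the response in culture. Without regard to the replicate number, none of the 10 genes changed, and their levels followed the number of the culture far more than the genotype. With the number as a block, Gdf15 and Ddit3 fell in m.11,944 60% cells and no member rose.

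Atf4, the central transcription factor, was at 844, 855, 354 and 543 CPM in control cultures 1 to 4 and at 790, 803, 221 and 446 CPM in the m.11,944 60% cultures of the same numbers. It was lower in the mutant in every pair, while the 2 groups overlapped widely because cultures 1 and 2 of both were high and cultures 3 and 4 low. Atf5, a related factor linked to mitochondrial stress, was at 281, 253, 70.8 and 85.7 CPM in controls and at 299, 285, 48.3 and 71.0 CPM in mutants. The mutant was higher in pairs 1 and 2 and lower in pairs 3 and 4. Ddit3, which encodes the pro-apoptotic factor CHOP, was at 125, 118.97, 3.71 and 7.57 CPM in controls and at 86.4, 85.2, 3.88 and 6.70 CPM in mutants. Its drop from cultures 1 and 2 to cultures 3 and 4 appeared in both groups, and the mutant was lower in 3 of 4 pairs. Exons of Mars1 on the opposite strand cover 79.5% of the canonical Ddit3 transcript, and without a stated strand setting the reads of the 2 genes cannot be told apart. Mars1 itself had a range of 0.45 on the log2 scale over the 8 cultures against 5.03 for Ddit3, and a log2 fold change of −0.04 in the paired fit.

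Trib3, a pseudokinase that feeds back on ATF4 and CHOP, was at 524, 501, 9.24 and 68.0 CPM in control cultures and at 463, 456, 6.31 and 32.4 CPM in mutant cultures. The mutant was lower in each pair, by 0.13 to 1.07 on the log2 scale. Chac1, an enzyme that degrades glutathione, was at 31.7, 33.4, 4.17 and 44.6 CPM in controls and at 62.9, 63.6, 1.83 and 23.7 CPM in mutants. Its pairs disagreed in direction, with log2 ratios of 0.99 and 0.93 in pairs 1 and 2 and of −1.16 and −0.91 in pairs 3 and 4. Asns, asparagine synthetase, was at 654, 596, 197 and 329 CPM in controls and at 674, 616, 129.9 and 295 CPM in mutants. Pair 3 of Asns differed most, with a log2 ratio of −0.60, and pairs 1 and 2 were level. Sesn2, a leucine-sensing inhibitor of mTORC1, was at 220.3, 229, 54.8 and 92.6 CPM in controls and at 229, 225, 42.7 and 75.3 CPM in mutants. Ddit4, another inhibitor of mTORC1 that hypoxia and glucocorticoids also raise, was at 142, 141, 54.9 and 189 CPM in controls and at 185, 199.9, 56.7 and 118 CPM in mutants. Ddit4 and Chac1 were the members with their highest control value in culture 4, and the pairs of Ddit4 ranged from −0.67 to 0.50 on the log2 scale.

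Gdf15 and Fgf21, the secreted members, sat near the detection limit in cultures 3 and 4. Gdf15 had 103, 139, 2 and 7 counts (3.80, 5.03, 0.0567 and 0.238 CPM) in control cultures and 33, 39, 0 and 4 counts (1.29, 1.46, 0 and 0.110 CPM) in mutant cultures. It was lower in the mutant wherever counts passed the floor of 3 counts, a level of 0.117 CPM in mutant culture 3 and 0.0829 CPM in control culture 3. Fgf21 had 80, 81, 0 and 11 counts in controls and 90, 80, 1 and 6 counts in mutants, and it was not detectable above that floor in culture 3 of either group. These limits cover counting error only.

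**Figure D1:**
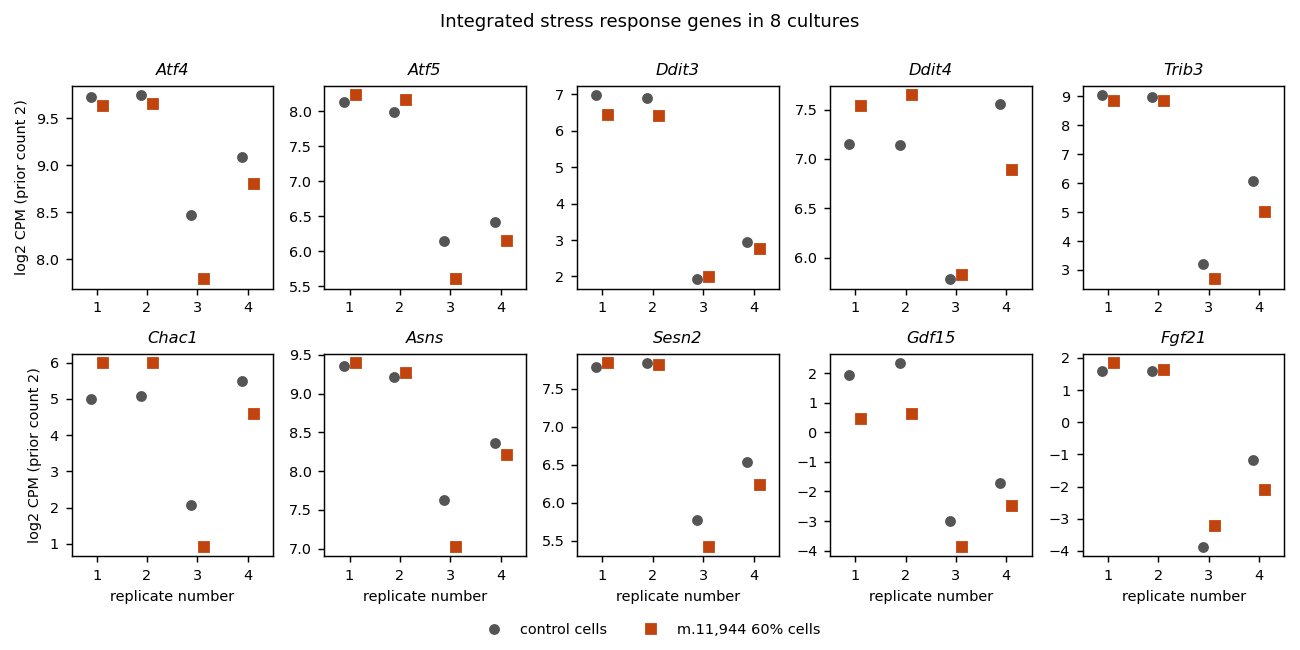
Log2 CPM (prior count 2, vertical axis) of the 10 integrated stress response genes by replicate number (horizontal axis) in 4 control and 4 m.11,944 60% cultures, 1 point per culture. Every gene was lowest in culture 3 of each group, and Trib3 spans 9.24 to 524 CPM over the control cultures.

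By edgeR's quasi-likelihood test on the cultures without the replicate number, 0 of the 10 genes passed an adjusted p of 0.1 in either direction, where 0.0387% of the 12930 genes tested did (0.00773% higher, 0.0309% lower). Over all genes 532 had an unadjusted p under 0.05, limma-voom called 5 genes and DESeq2 84, and neither called a member. The 10 log2 fold changes had a median of −0.05 against −0.00 over all genes, with 6 below 0 and 4 above, and every adjusted p was 1.00. The intervals were wide: the 95% interval of the log2 fold change ran from −1.19 to 0.80 for Atf4, from −3.39 to 3.00 for Trib3, from −3.44 to 2.48 for Ddit3 and from −4.84 to 1.49 for Gdf15. For Trib3 and Ddit3 the unpaired intervals thus held changes of several fold in either direction. No member's 2 groups were free of overlap, where 3.48% of all genes had groups that did not overlap.

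Same-numbered cultures resembled each other (mean correlation of their deviations 0.796 over genes). With the number as a block 2 of the 10 genes fell and 0 rose, where 7.11% of all genes tested were called, 4.09% lower and 3.02% higher. That background itself moved with the cultures used, from 919 genes called to 89, 110, 602 and 2092 without pair 1, 2, 3 and 4. Gdf15 fell by 1.63 on the log2 scale (SE 0.24, 95% interval −2.18 to −1.09, adjusted p = 0.0119 by edgeR). Ddit3 fell by 0.34 (SE 0.10, −0.56 to −0.12, adjusted p = 0.0963). Over all alternatives the adjusted p ran from 0.0119 to 1.00 for Gdf15 and from 0.0557 to 1.00 for Ddit3. Trib3 and Atf4 were lower in all 4 pairs but did not pass, with log2 fold changes of −0.46 (SE 0.15, −0.81 to −0.11, adjusted p = 0.140) and −0.28 (SE 0.10, −0.50 to −0.07, adjusted p = 0.134). The paired intervals were narrow for Sesn2 (−0.33 to 0.04), Asns (−0.39 to 0.07) and Atf5 (−0.38 to 0.13), and wider for Ddit4 (−0.34 to 0.48), Fgf21 (−0.57 to 0.63) and Chac1 (−0.75 to 1.03). The 2 calls rested on the cultures with high levels: without pair 1 or without pair 2 no member was called, Ddit3 having an adjusted p of 0.490 or 0.435 and Gdf15 too few counts to be tested. Without pair 3 the same 2 genes fell, and without pair 4 Gdf15 and Ddit3 fell while Ddit4 rose (adjusted p = 0.0806). Gdf15 lies on chromosome 8, where 12.2% of 711 genes were lower in the mutant with the block (median log2 fold change −0.08) against 3.21% on chromosomes other than 8 and 16 (median 0.01). The part of this in the Gdf15 result was not tested.

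**Figure D2:**
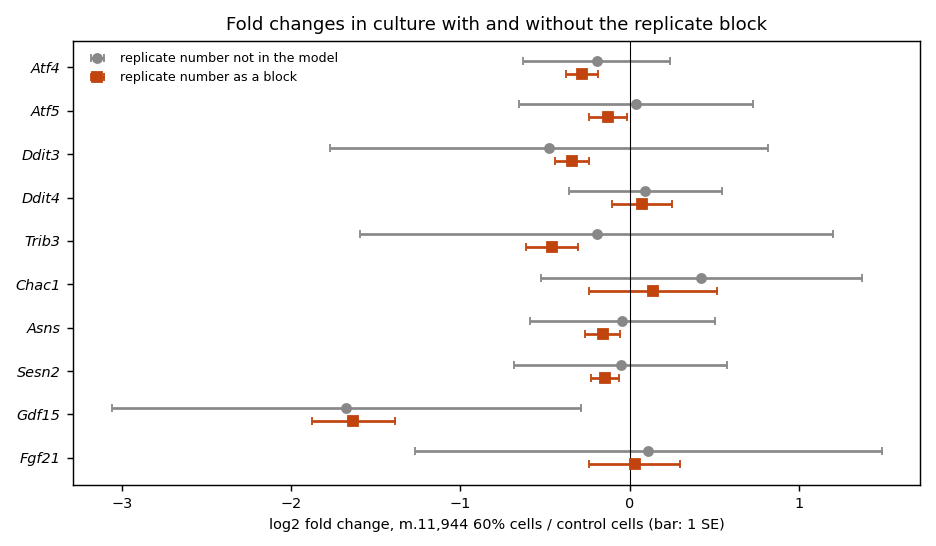
Log2 fold change of each gene, m.11,944 60% over control cells (horizontal axis), without and with the replicate number as a block, with bars of 1 SE. The block narrowed the bars, and Gdf15 lies at −1.67 without it and −1.63 with it.

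The other genes of the pathway were read from lists. Upstream, the 6 eIF2 kinases and relay genes had positive log2 fold changes with the block (median 0.17), and 1 passed: Eif2ak3, which encodes the ER stress kinase PERK, rose by 0.43 (SE 0.10, adjusted p = 0.0643). None of the 10 genes for eIF2, eIF2B and the eIF2 phosphatase passed. Downstream, 12 of 45 tested genes in the 5 lists of partners and targets fell (26.7%) and 0 rose, with a median of −0.17 against 0.01 over all genes. These calls rested on pairs 1 and 2: 1 of 45 fell without pair 1, 1 without pair 2, 14 without pair 3, and 13 fell and 2 rose without pair 4, while the median stayed between −0.22 and −0.12. Eif2ak3 likewise lost its call, with an adjusted p by edgeR of 0.322 without pair 1 and 0.262 without pair 2. Its log2 fold changes there were 0.34 and 0.40. Among bZIP partners, Atf3 fell by 0.65 (adjusted p = 0.0553) and Cebpb by 0.31 (adjusted p = 0.0506). The amino acid transporter Slc38a2 fell by 0.31 and was the one of these 12 whose 2 groups did not overlap. In amino acid metabolism, Aldh1l2, a mitochondrial folate enzyme, fell by 0.33 and Got1, an aspartate aminotransferase, by 0.29. Of the 13 tRNA synthetases, Nars1 fell by 0.39, Aars1 by 0.33, Yars1 by 0.31 and Sars1 by 0.27. Stc2, a secreted glycoprotein, fell most, by 1.49 (SE 0.20, adjusted p = 0.00750), beside the autophagy receptor Sqstm1 (0.38) and the translation repressor Eif4ebp1 (0.29). The ER chaperones, which the unfolded protein response raises through other factors, had 0 of 12 called. Of 9 p53 targets 3 fell (Cdkn1a, Bbc3 and Eda2r), with a median of −0.14, so falls were not confined to the ATF4 lists. Over all genes 4.09% were lower. Hypoxia targets had 0 of 10 called, mitochondrial chaperones and proteases 0 of 8, and glucocorticoid targets 0 of 4. In the fit without the block 0 of 61 pathway genes passed.

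How far the 10 genes spread over the 8 cultures was measured as the highest minus the lowest log2 CPM. Trib3 ranged over 6.33 (80.6-fold on this scale), rank 13 among 12930 genes. Chac1 ranged over 5.07 (rank 37) and Ddit3 over 5.03 (rank 40). Gdf15 and Fgf21 each had a culture at 0 counts, so their ranges are lower bounds: with that culture set to its floor of 3 counts the highest culture was at least 43.0-fold higher for Gdf15 and at least 42.5-fold higher for Fgf21, or 5.43 and 5.41 on the log2 scale. Their ranges of 6.23 and 5.72 in log2 CPM depend on the prior count of 2. Atf5 at 2.62, Sesn2 at 2.41, Asns at 2.37, Atf4 at 1.95 and Ddit4 at 1.87 ranged less, and Ddit4, the narrowest, was still wider than 88.9% of genes. The median range of the 10 genes was 3.82 against 0.84 over all genes, also with Gdf15 and Fgf21 at their bounds. Lists of partners and targets had medians of 2.51 for other ATF4 targets, 2.11 for bZIP partners, 1.70 for amino acid synthesis, 1.44 for transporters and 1.10 for tRNA synthetases. Atf3 ranged over 5.93 and Ppp1r15a, which encodes the GADD34 subunit that returns eIF2 to its active state, over 5.34. The kinases and relay genes had a median of 1.09, level with the tRNA synthetases, and the eIF2 and eIF2B list one of 0.73, the ER chaperones 0.69, p53 targets 0.95 and hypoxia targets 1.93.

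These ranges lay between replicate numbers more than between genotypes. In the blocked fit a test of the replicate number, added after the data were seen, called 10 of the 10 genes, where 64.2% of all genes were called. Adjusted p values ran from 6.41e-08 for Ddit3 to 0.00423 for Chac1. What the replicate numbers stand for is not given in the sources used here, so culture day, density, medium and library preparation cannot be told apart. Because the cultures form separate clusters of at most 4 samples, no correlation over cultures is given.

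**Figure D3:**
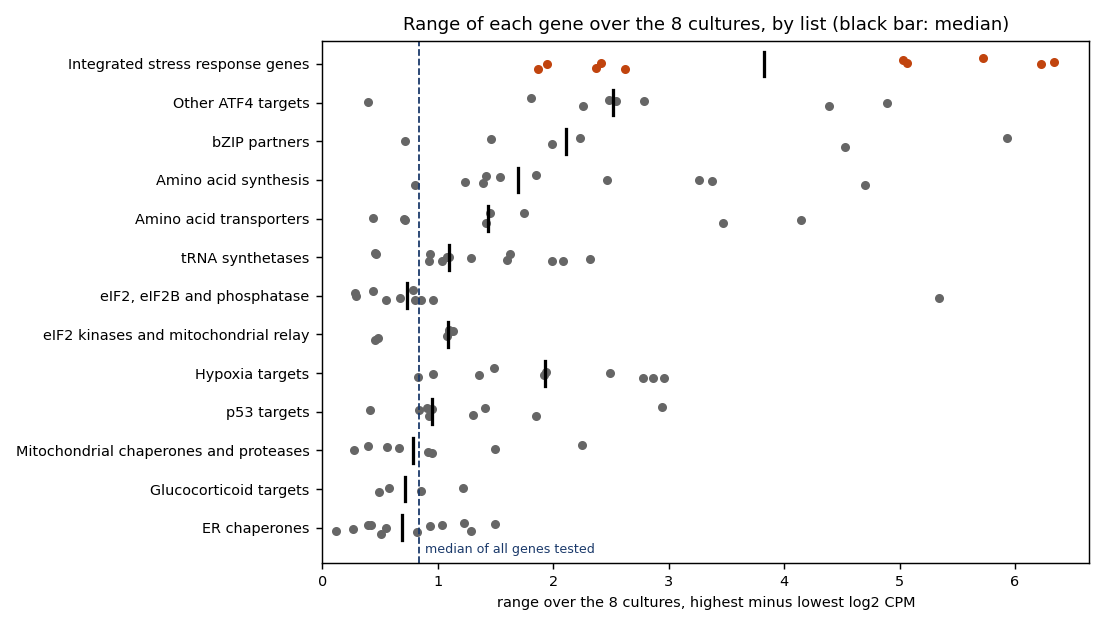
Range of each gene over the 8 cultures (highest minus lowest log2 CPM, horizontal axis) by list (vertical axis), 1 point per gene and a black bar at the median. The 10 genes have a median of 3.82 and the ER chaperones one of 0.69.

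In tumors the question was whether m.12,436 at 60% or 40% heteroplasmy moved the same genes, and whether the 2 heteroplasmies differed. None of the 9 genes with enough counts changed in any of these 3 comparisons, and all groups overlapped. The 2 mutant groups share their control tumors.

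Atf4 was at 228, 246, 256 and 262 CPM in the 4 control tumors in ascending order. It ran from 216 through a median of 232 to 366 CPM in the 40% tumors and from 215 through 232 to 259.6 CPM in the 60% tumors. Apart from the single value of 366 CPM the spans of the 3 groups overlapped. Asns was at 53.7, 60.0, 61.7 and 72.3 CPM in controls, between 43.1 and 121 CPM with a median of 49.98 in the 40% tumors, and between 40.8 and 59.1 CPM with a median of 52.0 in the 60% tumors. Of the 7 tumors with 60%, 6 lay below every control for Asns, and the seventh lay among the controls. Trib3 was at 4.81 to 8.65 CPM in controls (median 7.15), 5.22 to 16.5 CPM in the 40% tumors (median 5.98) and 5.85 to 11.97 CPM in the 60% tumors (median 6.53). Chac1 was scarce, with 26 to 38 counts (0.902 to 1.69 CPM, median 1.21) in controls, 0.626 to 8.43 CPM (median 0.941) in the 40% tumors and 0.771 to 2.12 CPM (median 1.20) in the 60% tumors. For both genes the medians lay closer together than the tumors of 1 group did.

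Ddit3 was at 16.8 ± 4.24 CPM (SD, n = 4) in controls, 16.5 ± 3.27 CPM (n = 7) in the 40% tumors and 17.7 ± 2.11 CPM (n = 7) in the 60% tumors. Atf5 was at 109 ± 16.6, 106 ± 15.8 and 107 ± 8.65 CPM in the same order. Neither gene's group means differed by more than 1 SD. Sesn2 was at 48.6 ± 3.94, 51.1 ± 13.7 and 44.5 ± 7.45 CPM, and Ddit4 at 188 ± 41.6, 209 ± 33.7 and 184 ± 31.8 CPM. Gdf15 was low and uneven, at 0.769, 0.796, 1.92 and 4.01 CPM in controls, at 0.778 to 4.51 CPM (median 1.12) in the 40% tumors and at 0.411 to 2.42 CPM (median 1.15) in the 60% tumors. Fgf21 had 0 to 6 counts in each tumor, mostly at or under the floor of 3 counts, and was not tested; 1 control tumor held the 6 counts.

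**Figure D4:**
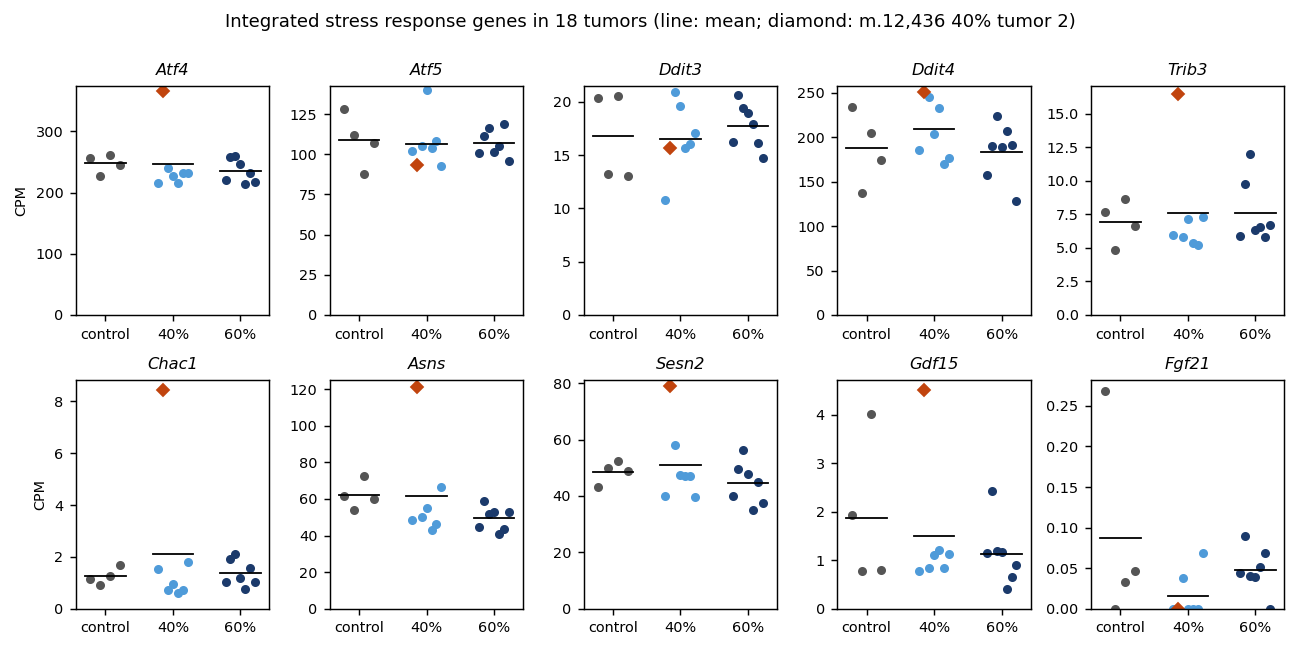
CPM (vertical axis, from 0) of the 10 genes in 4 control, 7 m.12,436 40% and 7 m.12,436 60% tumors, 1 point per tumor, with a line at each group mean and m.12,436 40% tumor 2 as a diamond. The groups overlap for every gene, and the diamond lies highest for 7 genes, among them Chac1 at 8.43 CPM.

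For m.12,436 60% against control tumors, 0 of 9 genes passed by edgeR, where 2.31% of the 16213 genes tested did (0.962% higher, 1.34% lower). Over all genes 2645 had an unadjusted p under 0.05, limma-voom called 408 genes and DESeq2 1056, and none of the 3 tools called a member. Fold changes were small for most, with 95% intervals on the log2 scale of −0.30 to 0.16 for Atf4, −0.23 to 0.20 for Atf5, −0.25 to 0.41 for Ddit3, −0.34 to 0.30 for Ddit4 and −0.45 to 0.21 for Sesn2. The intervals were wider for Asns (log2 fold change −0.32, SE 0.22, −0.78 to 0.14, adjusted p = 0.489), Trib3 (−0.48 to 0.74), Gdf15 (−0.74, SE 0.54, −1.87 to 0.39, adjusted p = 0.517) and Chac1 (−1.13 to 1.44). The Gdf15 value rested on control tumor 3, without which it was −0.02. Of 62 genes in the 7 pathway lists 0 passed, with a median of −0.04. Groups did not overlap for 0 of the 9 genes, where 4.07% of all genes did not. Summed leukocyte markers ran from 501 to 613 CPM in controls and from 504 to 821 CPM in the 60% tumors, and the myeloid integrin Itgam was higher in the latter by 0.38 (adjusted p = 0.0261). The melanosome gene Pmel, a melanoma marker, was lower in the 60% tumors by 2.21 (SE 0.51, adjusted p = 0.0456 by edgeR). Of the 4 melanoma markers tested, 2 had log2 fold changes above 0 and 2 below, with a median of 0.03. The sum of all 8 markers had a median of 83.7 CPM in the 60% tumors and 84.5 CPM in controls, and control tumor 3 had the highest sum, 137 CPM. The part of these markers in the members' values was not tested.

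For m.12,436 40% against control tumors, 0 of 9 genes passed, and 0% of all 16213 genes did by edgeR, with 825 at an unadjusted p under 0.05 and 5 called by DESeq2. All 6 skeletal muscle markers were higher in the 40% tumors (median 0.74), and all 4 tested adipocyte and all 4 tested melanoma markers lower (medians −0.60 and −0.47). Leukocyte markers had 5 of 11 above 0 (median −0.04). The part of these markers in the members' values was not tested. The 95% intervals were −0.24 to 0.22 for Atf4, −0.25 to 0.19 for Atf5, −0.36 to 0.30 for Ddit3, −0.17 to 0.48 for Ddit4 and −0.26 to 0.40 for Sesn2. Chac1 had the largest estimate, 0.74 (SE 0.61, −0.55 to 2.02). That value came from 1 tumor: without m.12,436 40% tumor 2 it was −0.22, Trib3 went from 0.12 to −0.18 and Sesn2 from 0.07 to −0.06, and Gdf15 from −0.37 to −0.94. For m.12,436 60% against 40% tumors, 0 of 9 genes passed, where 1.81% of all genes did (0.814% higher, 0.993% lower), with 2285 genes at an unadjusted p under 0.05 and 744 called by DESeq2. Asns was at −0.30 (SE 0.19, −0.70 to 0.10) and Chac1 at −0.58 (SE 0.51, −1.65 to 0.49), and without that tumor these became −0.05 and 0.38. The groups of all 9 genes overlapped in both of these comparisons, where 0.45% (40% against control) and 0.623% (60% against 40%) of all genes had groups that did not. Among 62 pathway genes 1 passed in the latter, the bZIP partner Nfe2l1, higher at 60% by 0.21 (SE 0.05, adjusted p = 0.0674). Of the neighbouring lists, the mitochondrial chaperone Trap1 was lower at 60% by 0.27 (adjusted p = 0.0575) and the glucocorticoid target Fkbp5 by 0.43 (adjusted p = 0.0815). Markers of other cells moved as well. Itgam was higher at 60% by 0.42 (adjusted p = 0.00611), and 10 of 11 leukocyte markers had positive values (median 0.46), Itgam alone being called. All 6 skeletal muscle markers were lower at 60% (median −0.73) and all 4 adipocyte markers higher (median 0.87), with 0 called in either list. Their part in the members' values was not tested.

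The tumor numbered 2 of the m.12,436 40% group had the highest level of all 18 tumors for 7 of the 10 genes. Chac1 was at 8.43 CPM there against at most 2.12 CPM elsewhere (3.98 times), Asns at 121 against 72.3 CPM (1.67 times), Atf4 at 366 against 262 CPM, Trib3 at 16.5 against 11.97 CPM and Sesn2 at 78.9 against 58.2 CPM. Gdf15 at 4.51 CPM and Ddit4 at 251 CPM were only slightly above the next tumor, at 4.01 and 245 CPM. Atf5 (93.4 CPM, rank 16), Ddit3 (15.6 CPM, rank 13) and Fgf21 (0 counts) were not high. Amino acid genes were high in the same tumor, with median deviations from the mean of all tumors of 0.81 on the log2 scale for synthesis, 0.69 for transporters and 0.42 for tRNA synthetases, all 13 of which were above the mean by at least 0.27. Slc7a11, the cystine importer that supplies glutathione synthesis, was at 176 CPM there against a median of 3.77 CPM in its group. The median deviation was 0.38 for p53 targets, 0.32 for eIF2 and eIF2B genes, 0.29 for other ATF4 targets, 0.28 for mitochondrial chaperones and 0.15 for kinases and relay genes. It was −0.12 for ER chaperones, −0.13 for hypoxia targets, −0.14 for bZIP partners and −0.20 for glucocorticoid targets. The sums of leukocyte (548 CPM, rank 11 of 18), melanoma (97.6 CPM, rank 3), fibroblast (3033 CPM, rank 16) and skeletal muscle markers (194 CPM, rank 5) lay within the range of the other tumors, and that of endothelial markers (229.9 CPM, rank 1) was level with the next. As median deviations over each list, however, this tumor was the lowest of the 18 for fibroblast markers (−0.89, the next being −0.091) and for melanoma markers (−0.79, the next being −0.37). Leukocyte markers were at −0.23, endothelial markers at 0.45 and skeletal muscle markers at 1.71 on that measure. The part of these markers in the members' levels was not tested. These values are of 1 tumor fragment and carry no test.

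Correlations of levels over the 18 tumors are given as descriptions, since the genes share libraries, depth and cell makeup. Atf4 tracked Asns (Pearson's r = 0.88, Spearman's rho = 0.65, r = 0.71 without the 2 tumors farthest from the median), Trib3 (0.85, 0.60 and 0.66) and Gdf15 (0.77, 0.59 and 0.71). With Sesn2 it gave 0.82, 0.74 and 0.56, and with Chac1 0.85, 0.61 and 0.45. Atf5 did not track the others, with r between −0.34 and 0.21, and Ddit3 had r between −0.10 and 0.48. Without the 2 farthest tumors Ddit3 reached r = 0.57 with Atf4, 0.56 with Trib3, 0.54 with Ddit4 and 0.51 with Gdf15. Genes outside the list whose level was most like the mean z score of the 9 members over the 18 tumors were the seryl-tRNA synthetase gene Sars1 (r = 0.93, rho = 0.82, 0.88 without the 2 farthest), Bri3bp (0.91, 0.84 and 0.81), Psme3 (0.89, 0.81 and 0.79), Pdxp (0.89, 0.88 and 0.87) and the mitochondrial folate enzyme gene Mthfd2 (0.89, 0.77 and 0.79).

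The last comparison set control tumors against control cultures, to place the levels of the response. Of 9 genes tested 7 were lower in tumors and 0 higher, where 29.9% of 15047 genes were lower, 35.3% higher and 65.2% either. Tumor and culture differ in cell makeup and library source, which cannot be told apart from growth in the animal. Trib3 was at 9.24 to 524 CPM in control cultures and at 4.81 to 8.65 CPM in control tumors, all 4 of which were below the lowest culture, and it fell by 5.58 on the log2 scale (SE 1.11, adjusted p = 0.00207 by edgeR). Chac1 was at 4.17 to 44.6 CPM in cultures and 0.902 to 1.69 CPM in tumors and fell by 4.78 (SE 0.66, adjusted p = 0.000241). Asns was at 197 to 654 CPM in cultures and 53.7 to 72.3 CPM in tumors and fell by 3.11 (SE 0.36, adjusted p = 8.47e-05). These 3 genes had the largest changes of the list. Sesn2 fell by 1.89 (SE 0.41, adjusted p = 0.00339) and Atf4 by 1.65 (SE 0.26, adjusted p = 0.000518), also without overlap between groups.

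Atf5 and Ddit3 fell with overlapping groups. Atf5 was at 70.8 to 281 CPM in cultures and 87.8 to 128 CPM in tumors, lower by 0.93 (SE 0.43, adjusted p = 0.0877 by edgeR). Its lowest tumor was close to control culture 4 (85.7 CPM). These CPM are scaled separately in tumors and cultures, so the order of the 2 is not settled. Ddit3 was at 3.71 to 125 CPM in cultures and 13.0 to 20.6 CPM in tumors, lower by 2.19 (SE 0.97, adjusted p = 0.0773). Control cultures 3 and 4 were below every control tumor for Ddit3, so its call came from cultures 1 and 2. Each of these calls was lost in 11 of 15 alternatives, among them limma-voom, the replicate block and the omission of control culture 1, control culture 2 or any 1 control tumor, with adjusted p values of 0.0171 to 0.221 for Atf5 and 0.0140 to 0.570 for Ddit3. Both calls held with DESeq2, with its size factors and without control culture 3 or 4. Ddit4 at 54.9 to 189 CPM in cultures and 137 to 234 CPM in tumors did not pass (0.25, SE 0.32, −0.48 to 0.98, adjusted p = 0.533), nor did Gdf15 (−0.53, SE 1.05, −2.90 to 1.83, adjusted p = 0.684). Fgf21 was not tested in this fit. Non-overlap held for 5 of the 9 genes, where 56.9% of all genes had groups that did not overlap.

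Partners and targets were also lower in tumors, with 41 of 46 called lower (89.1%), 0 higher and a median of −1.72 against 0.04 over all genes. All 10 amino acid synthesis genes fell, among them the serine synthesis genes Psat1 by 2.89 and Phgdh by 2.21, as did all 13 tRNA synthetases and all 8 other ATF4 targets. Of 9 transporters 7 fell, with Slc7a11 lower by 4.35 (SE 0.66), and of 6 bZIP partners 3 fell. Mitochondrial chaperones and proteases fell in 8 of 8 cases. ER chaperones were mixed, with 5 of 12 lower and 2 higher. Among kinases and relay genes Eif2ak3 (0.92), the interferon-induced kinase gene Eif2ak2 (0.74) and Dele1 (0.35) were higher and Eif2ak4, which encodes the amino acid sensor GCN2, was lower by 0.40. Leukocyte markers were higher in tumors for 10 of 10 genes tested, with a median log2 fold change of 9.40, and their part in the members' fall was not tested.

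**Figure D5:**
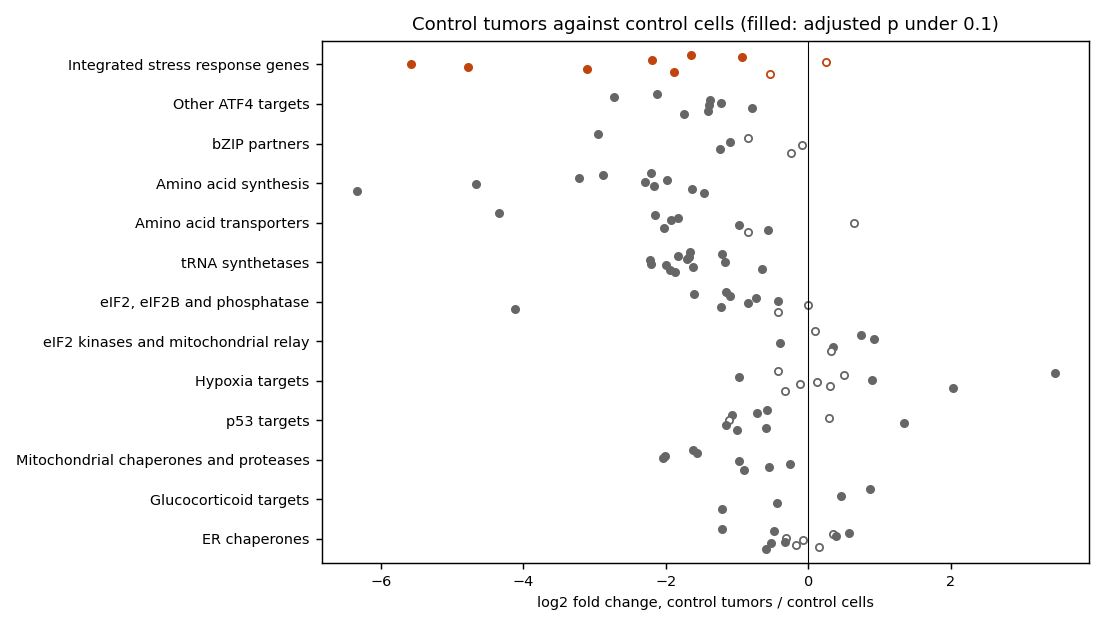
Log2 fold change, control tumors over control cells (horizontal axis), of each gene by list (vertical axis), with filled points for an adjusted p under 0.1. The 10 integrated stress response genes hold 7 filled points below 0, and the lists of tRNA synthetases and amino acid synthesis are filled and below 0 throughout.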

How the data were processed

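RNA from cell pellets and from tumor fragments kept in RNAlater was extracted and sequenced by GeneWiz. The authors aligned reads to GRCm39 with STAR in 2-pass mode and counted them per gene with featureCounts, and they deposited 1 table of raw counts. No normalization was applied to it, and whether reads were counted by strand is not given in the sources used here. Of its 47 columns 26 were matched to samples by name and number and 21 were not used, so the m.12,436 60% cells, further control tumors and the m.11,944 tumors are not analysed here. Positions of genes came from GENCODE for GRCm39, in which 56017 of the 56748 gene IDs were found.

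The deposited counts entered edgeR 4.0.16 (R 4.3.3), with genes kept by filterByExpr, TMM scaling, a robust quasi-likelihood fit and Benjamini-Hochberg adjustment over all genes tested, with a threshold of 0.1 and two-sided p values. The 8 cultures, the 18 tumors together, and the 4 control tumors with the 4 control cultures were fitted separately. Levels in CPM are scaled within cultures or within tumors, and fold changes between tumors and cultures come from their joint fit. Log2 CPM used a prior count of 2, and RPKM was computed from CPM and the canonical transcript's length. Intervals are 95% intervals from each fit's SE and degrees of freedom.

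Same-numbered cultures resembled each other: their deviations from their group means correlated across genes at 0.718 to 0.832. The mean for other numbers was −0.264. That mean is no separate evidence, since centering each group pushes it below 0 when same numbers agree. Cultures 1 and 2 were the closest pair within each group, so the check does not show which of them match across groups. In tumors the same check gave means of −0.156 to −0.00582. No replicates were so close as to be 1 library deposited in duplicate (chi-square per gene at least 9.99).

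All 10 members are named. From other lists, genes are named when past the threshold or among the 2 smallest p values of a comparison. The members and lists were chosen with earlier results of these data known. Alternatives were limma-voom (limma 3.58.1), DESeq2 1.42.0, its size factors, no filter, at least 10 counts in every sample, an adjusted p of 0.05, the replicate block, only the groups compared, a leukocyte covariate and leaving out each sample. The pairs left out and the test of the replicate number were chosen after seeing the data. The fit was tested on simulated data.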

Additional observations from a re-analysis of the deposited data

Results flagged for a closer look

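Of 50 groups of values (10 genes in 5 groups of 4 to 7 samples), 7 held a sample whose gap to its nearest neighbour passed Dixon's 95% limit for the group's range, where chance gives about 1 in 20. Of these, 5 are in m.12,436 40% tumor 2: Atf4 at 366 CPM, Trib3 at 16.5 CPM, Chac1 at 8.43 CPM, Asns at 121 CPM and Gdf15 at 4.51 CPM. The genes are not independent, since they rise and fall together in that tumor. The other 2 are Atf5 at 139.8 CPM in m.12,436 40% tumor 4 and Gdf15 at 2.42 CPM in m.12,436 60% tumor 2.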

How the results depend on the processing

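Over 46 gene-comparison pairs and their alternatives (884 values), 756 kept direction and side of the threshold, 22 lost and 7 gained the call, and 99 changed sign. No value that changed sign was past the threshold before or after. The count of members changed was the same in the tumor comparisons under every alternative run (0), and lay between 5 and 8 for control tumors against control cells. In the cultures it was 0 in all fits without the replicate block, 2 with the block, and 0 to 3 when samples or pairs were left out. Pairing the tumors by number, which the check of the numbers did not bear out, changed no member's call in the mutant comparisons; the cause of the sign changes that follow was not tested.

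Sign changed without leaving out a sample in these log2 fold changes. In m.11,944 60% against control cells Atf5 was −0.135 with limma-voom and −0.13 with the block. In m.12,436 60% against control tumors Atf5 was 0.019 and Ddit4 0.041 with the block, and 0.00087 and 0.076 with the leukocyte covariate. In m.12,436 40% against control tumors Atf4 was 0.044, Ddit3 0.020 and Asns 0.014 with the block. In m.12,436 60% against 40% tumors Chac1 was 0.029 with limma-voom and Trib3 −0.0014 without a filter. In control tumors against control cells Gdf15 was 0.80 with limma-voom and 0.093 with the block.

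When samples or pairs were left out, the log2 fold changes that crossed 0 ran as follows. In m.11,944 60% against control cells the ranges were Atf4 −0.42 to 0.066, Atf5 −0.34 to 0.37, Ddit3 −0.99 to 0.070, Ddit4 −0.16 to 0.35, Trib3 −0.73 to 0.31, Chac1 −0.24 to 0.82, Asns −0.35 to 0.25, Sesn2 −0.38 to 0.24 and Fgf21 −0.55 to 0.61. In m.12,436 60% against control tumors they were Atf5 −0.098 to 0.075, Ddit3 −0.014 to 0.20, Ddit4 −0.14 to 0.10 and Trib3 −0.0085 to 0.27. In m.12,436 40% against control tumors they were Atf4 −0.13 to 0.028, Atf5 −0.12 to 0.057, Ddit3 −0.12 to 0.096, Trib3 −0.18 to 0.26, Chac1 −0.22 to 0.92, Asns −0.27 to 0.073, Sesn2 −0.065 to 0.13 and Gdf15 −0.94 to 0.35. In m.12,436 60% against 40% tumors they were Atf4 −0.090 to 0.058, Atf5 −0.014 to 0.099, Trib3 −0.14 to 0.31, Chac1 −0.74 to 0.38 and Gdf15 −0.67 to 0.20. In control tumors against control cells they were Ddit4 −0.021 to 0.45 and Gdf15 −1.25 to 0.20.

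Counts over all genes depended on the tool and on single samples. In the cultures edgeR called 5 genes, against 84 with DESeq2, 919 with the block, 0 with at least 10 counts in every sample and 0 when any 1 culture was left out. With the block and 1 pair left out it called 89 to 2092. For m.12,436 60% against control tumors edgeR called 374, against 1056 with DESeq2, 943 with only the 2 groups, 178 with the block, 133 with the leukocyte covariate and 150 at an adjusted p of 0.05, and with 1 tumor left out 66 (without control tumor 3) to 724 (without control tumor 4). For 60% against 40% tumors 293 genes compared with 744 by DESeq2, 178 without a filter, 49 with the leukocyte covariate and 113 at an adjusted p of 0.05, and with 1 tumor left out 108 (without 60% tumor 1) to 452 (without 40% tumor 4). For 40% against control tumors DESeq2 called 5 and edgeR 0. Gdf15, Fgf21 and, in tumors, Chac1 are limited by counts, so differences in them were often not detectable at this depth.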
